A study of Mus musculus with 20 samples.

Results

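The cytosolic ribosomal protein genes are described here in mouse subiculum pyramidal cells. Members were chosen by symbol, as Rps or Rpl followed by a number and optional letters, with Rpsa, Rplp0, Rplp1 and Rplp2 added and kinases and names ending in -ps left out. Of 37607 genes with bulk values, 84 were members: 30 of the small subunit, 45 of the large subunit and 9 copies or paralogs outside the usual set. The single-cell table held 82 members, 81 of them in both tables. Rpl7, Rpl31 and Rpl37a were named only in the bulk table and Rpl24 only in the single-cell table. The symbol alone decides membership. The group was nevertheless taken up with its fragment values over the 4 populations known, so its counts and medians in comparisons of populations are a description and support no claim about the group.

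The groups were pyramidal cells that project to NA or to PFC, set against those that project to RSC or to VHN, with 3 bulk libraries of each. By common usage NA stands for the nucleus accumbens, PFC for the prefrontal cortex and RSC for the retrosplenial cortex; the labels do not expand these or VHN, which is left as it is. All cells were fluorescent neurons sorted by hand from microdissected subiculum slices, and single cells were profiled on 4 plates of 96 wells. The labels give no strain, age, sex, treatment or tracer for any group. A bulk library pools many cells, so fewer cells of a type and less RNA per cell cannot be told apart.

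The ribosome is built from ribosomal RNA and one copy of nearly every ribosomal protein, and it makes all cytosolic proteins. Messenger RNAs of these proteins are short and abundant and usually begin with a C followed by a run of pyrimidines, the terminal oligopyrimidine or TOP motif, through which mTOR and LARP1 regulate their translation. Neurons depend on this machinery in the soma and in their processes, where ribosomal protein messages are also found.

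A pyrimidine run was present near some of these starts and not near others. Promoter windows came from RefSeq on GRCm38.p6, where 63 of the 85 members of either table had an entry. Each window below holds 20 bases before the annotated start and 20 from it, and capitals mark runs of at least 5 C or T within it. The first 8 are those of the 10 members with the lowest adjusted p between the pairs of populations that had an entry. The next 5 did not pass that test, and the last is a copy that shares much of its window with Rps27.
Rpl35 (chr2:39005112-39005151, minus strand): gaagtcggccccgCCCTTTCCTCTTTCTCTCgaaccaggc
Rps15 (chr10:80292411-80292450, plus strand): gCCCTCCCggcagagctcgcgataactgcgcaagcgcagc
Rpl13 (chr8:123102330-123102369, plus strand): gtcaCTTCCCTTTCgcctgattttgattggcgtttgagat
Rpl37 (chr15:5116593-5116632, plus strand): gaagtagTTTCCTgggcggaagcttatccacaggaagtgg
Rpl9 (chr5:65391412-65391451, minus strand): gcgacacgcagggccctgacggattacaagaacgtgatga
Rps25 (chr9:44407694-44407733, plus strand): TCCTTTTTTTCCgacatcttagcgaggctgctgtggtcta
Rps4x (chrX:102189372-102189411, minus strand): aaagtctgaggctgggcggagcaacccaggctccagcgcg
Rps24 (chr14:24490658-24490697, plus strand): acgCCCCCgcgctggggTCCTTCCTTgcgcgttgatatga
Rpl28 (chr7:4792945-4792984, plus strand): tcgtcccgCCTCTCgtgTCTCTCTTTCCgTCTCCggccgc
Rplp2 (chr7:141447631-141447670, plus strand): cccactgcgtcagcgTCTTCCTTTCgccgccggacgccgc
Rps6 (chr4:86857348-86857387, minus strand): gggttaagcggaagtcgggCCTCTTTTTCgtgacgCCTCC
Rpl10 (chrX:74270796-74270835, plus strand): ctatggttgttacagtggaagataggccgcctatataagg
Rps27 (chr3:90213629-90213668, minus strand): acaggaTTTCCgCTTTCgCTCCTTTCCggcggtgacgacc
Rps27rt (chr9:114982720-114982759, minus strand): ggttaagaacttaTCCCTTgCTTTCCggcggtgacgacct

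A run of at least 8 pyrimidines that touched this window was present in 29 of 63 member promoters (46.0%), against 20.7% of 26962 other promoters. The letters CGGAAG, read on both strands of the 300-base window, were in 42 member promoters (66.7%), against 17.0% of other promoters. TATAAA on the sense strand was in 5 (7.94%), against 8.88%. The annotated start base was a C in 21 of 63 member promoters (33.3%), against 16.1% of other promoters. Of the 8 windows of members with the lowest adjusted p, 4 held a run of at least 8 pyrimidines, and Rpl9 and Rps4x held none of 5. The Rpl10 window held none of 5 either. In Rps15, Rpl13, Rpl37 and Rps25 the marked run ended before the annotated start. These matches describe letters near annotated starts and do not show a site.

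Ribosomal protein genes took up a smaller share of all gene fragments in NA and PFC cells than in RSC and VHN cells. NA libraries 1 to 3 had a share of 0.375%, 0.425% and 0.413%, and PFC libraries had 0.531%, 0.548% and 0.470%. RSC libraries had 0.809%, 0.760% and 0.742%, and VHN libraries had 0.758%, 0.887% and 0.868%. No NA or PFC library reached the lowest RSC or VHN library, and every NA library lay below every PFC library. NA averaged 0.404% ± 0.0258, PFC 0.517% ± 0.0415, RSC 0.770% ± 0.0346 and VHN 0.837% ± 0.0695 (SD, n = 3 each). RSC and VHN libraries overlapped.

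**Figure D1:**
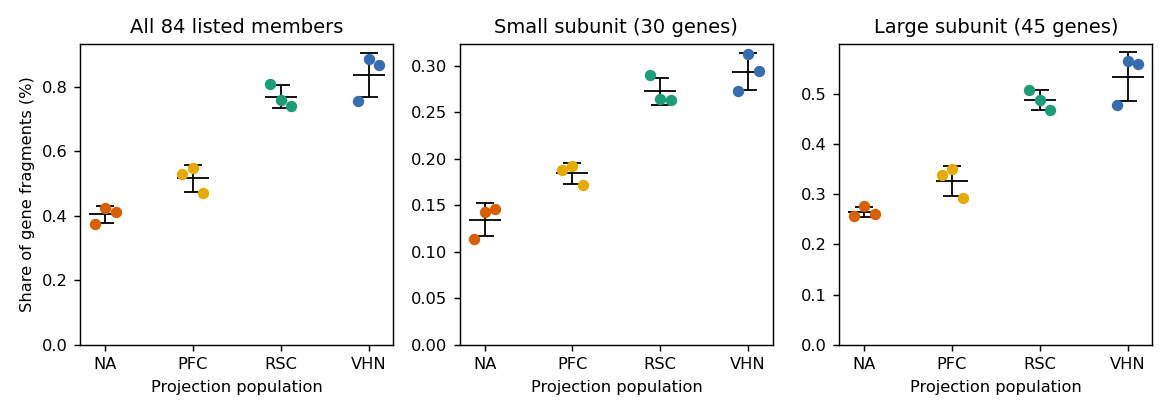
Share of all gene fragments (%) taken by the members, and by the small and large subunit genes alone, in each of 12 libraries (points) with the population mean and SD (bars). The 6 NA and PFC libraries lie between 0.375% and 0.548%, below the 6 RSC and VHN libraries at 0.742% to 0.887%.

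Both subunits shared this order. Small subunit genes took 0.159% ± 0.0303 of fragments in NA and PFC and 0.283% ± 0.0195 in RSC and VHN (SD, n = 6 each). Large subunit genes took 0.296% ± 0.0392 in NA and PFC and 0.511% ± 0.0420 in RSC and VHN (SD, n = 6 each). The ratio of small to large subunit fragments ran from 0.444 to 0.585 in NA and PFC and from 0.528 to 0.571 in RSC and VHN, so the ranges overlapped. NA library 1 had the lowest ratio. It also held the lowest level of 26 of the 80 members tested, more than any other library, whereas VHN library 2 held the highest level of 22.

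In the test over all genes, 39 of 80 tested members were lower in NA and PFC than in RSC and VHN and 0 were higher (edgeR quasi-likelihood test, Benjamini-Hochberg adjusted p under 0.05; DESeq2 called 46 lower and 0 higher, against 8.80% of all genes lower and 10.9% higher). Leaving out NA library 2 or RSC library 1 gave 1 higher member, against 7.47% and 5.92% of all genes higher. Among all 13916 genes tested, 6.66% were lower and 7.58% higher. The unadjusted p was under 0.05 for 58 members and for 27.5% of all genes. The median log2 fold change of the 80 members was −0.76, against 0.01 over all genes tested, and 76 of the 80 estimates were below 0. In 28 members the 6 and 6 libraries did not overlap, all lower in NA and PFC, against 3.95% of all genes in that direction and 3.57% in the other. The 4 members that did not pass the filter on low counts, Rpl3l, Rpl10l, Rpl39l and Rpl6l, have no test.

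**Figure D2:**
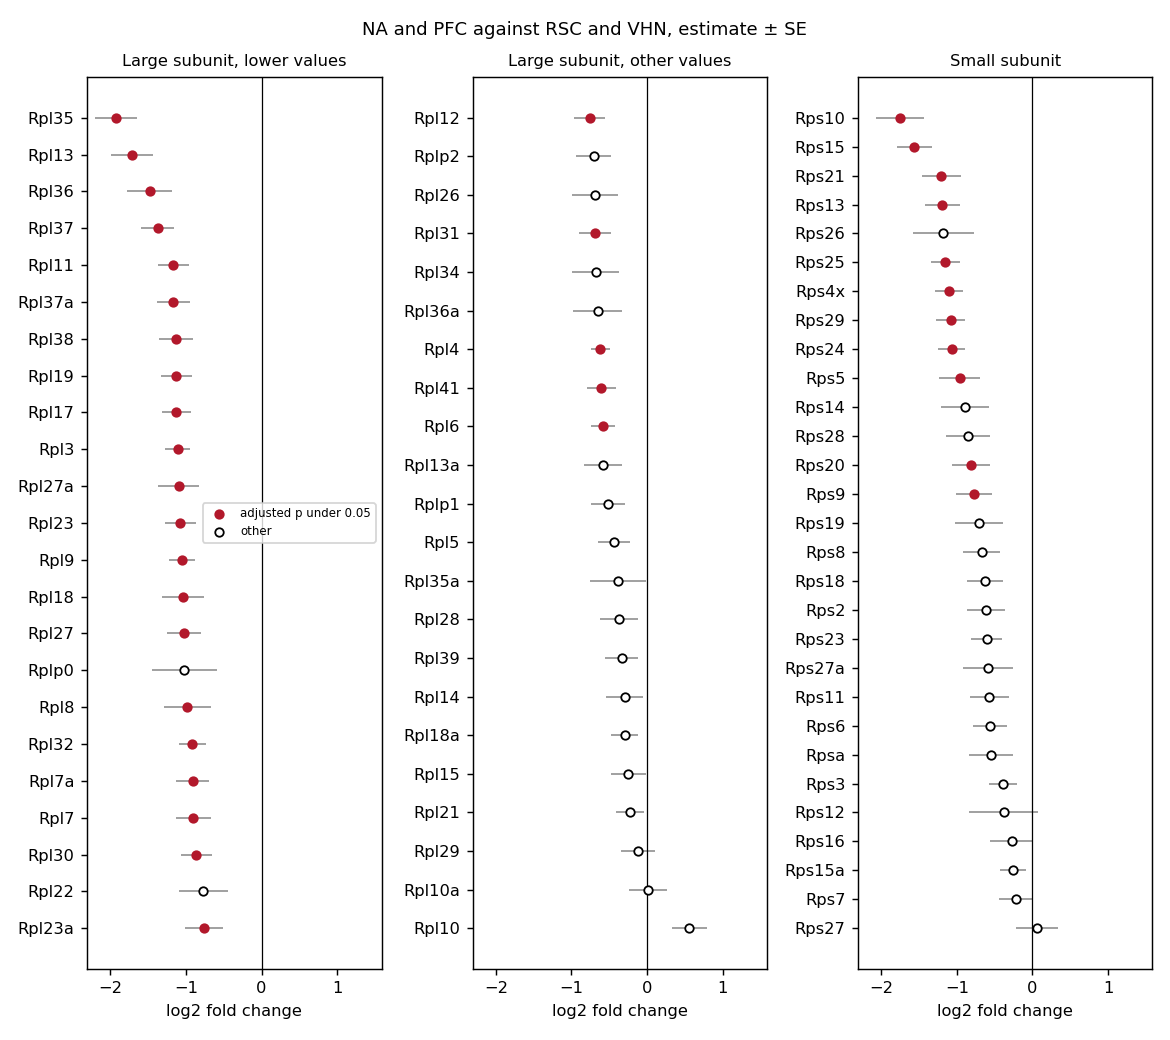
Log2 fold change (horizontal axis, estimate ± SE) of 74 of the 75 large and small subunit genes, NA and PFC against RSC and VHN. Filled points passed the edgeR test, and all of them lie below 0; Rpl10 at the foot of the middle panel is the highest estimate, at 0.56, and did not pass.

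Of 45 large subunit genes 26 fell, with a median of −0.76 over the subunit. Rpl35 (ENSMUSG00000062997), which lies near the exit of the peptide tunnel, changed most. Its level, as TMM-scaled CPM (counts scaled to a common library size), was 14.6, 8.25 and 14.6 in NA and 28.9, 16.7 and 21.9 in PFC libraries, against 67.9, 66.7 and 61.5 in RSC and 55.7, 63.5 and 67.6 in VHN libraries. All 6 NA and PFC libraries were below all others. The log2 fold change was −1.93 (SE 0.28, edgeR adjusted p = 0.000214), and the mean level was 3.65-fold higher in RSC and VHN.

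Rpl13 (ENSMUSG00000000740) ran from 14.5 to 51.2 CPM with a median of 34.5 in NA and PFC, against 97.2 to 146 with a median of 103 in RSC and VHN (log2 fold change −1.71, SE 0.28, edgeR adjusted p = 0.000519). Rpl37 (ENSMUSG00000041841) ran from 27.3 to 72.3 CPM with a median of 52.8 in NA and PFC, against 105 to 158 with a median of 121 in RSC and VHN (−1.38, SE 0.22, edgeR adjusted p = 0.000553). Neither gene's libraries overlapped between the sides. Rpl3 (ENSMUSG00000060036), a core protein close to the peptidyl transferase centre, ran from 90.8 to 166 CPM with a median of 128 in NA and PFC, against 239 to 310 with a median of 281 in RSC and VHN (−1.11, SE 0.17, edgeR adjusted p = 0.000356). Rpl9 and Rpl17 fell by 1.05 and 1.13 on the log2 scale, with adjusted p = 0.000652 and 0.000846 in the edgeR test and no overlap of libraries.

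Of 30 small subunit genes 12 fell, with a median of −0.72. Rps15 (ENSMUSG00000063457), a protein of the small subunit head, was at 53.6, 18.2 and 54.5 CPM in NA and 142, 122 and 122 CPM in PFC libraries. It was at 236, 193 and 190 CPM in RSC and 178, 270 and 240 CPM in VHN libraries. NA libraries were lowest and PFC libraries lay between NA and both other populations (−1.56, SE 0.23, edgeR adjusted p = 0.000266 for the pairs of populations).

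Rps25 (ENSMUSG00000009927), needed for initiation at some viral internal entry sites, ran from 60.5 to 150 CPM with a median of 81.5 in NA and PFC, against 142 to 227 with a median of 202 in RSC and VHN (−1.15, SE 0.19, edgeR adjusted p = 0.000666). Its sides overlapped, since PFC library 1, at 150 CPM, exceeded VHN library 2, at 142 CPM. Rps4x ran from 48.8 to 96.2 CPM in NA and PFC, against 128 to 172 CPM in RSC and VHN (−1.11, SE 0.19, edgeR adjusted p = 0.000681). Rps24, one of the genes mutated in Diamond-Blackfan anaemia, ran from 54.3 to 95.3 CPM in NA and PFC, against 117 to 158 CPM in RSC and VHN (−1.07, SE 0.18, edgeR adjusted p = 0.000752). Libraries of Rps4x and Rps24 did not overlap between the sides.

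**Figure D3:**
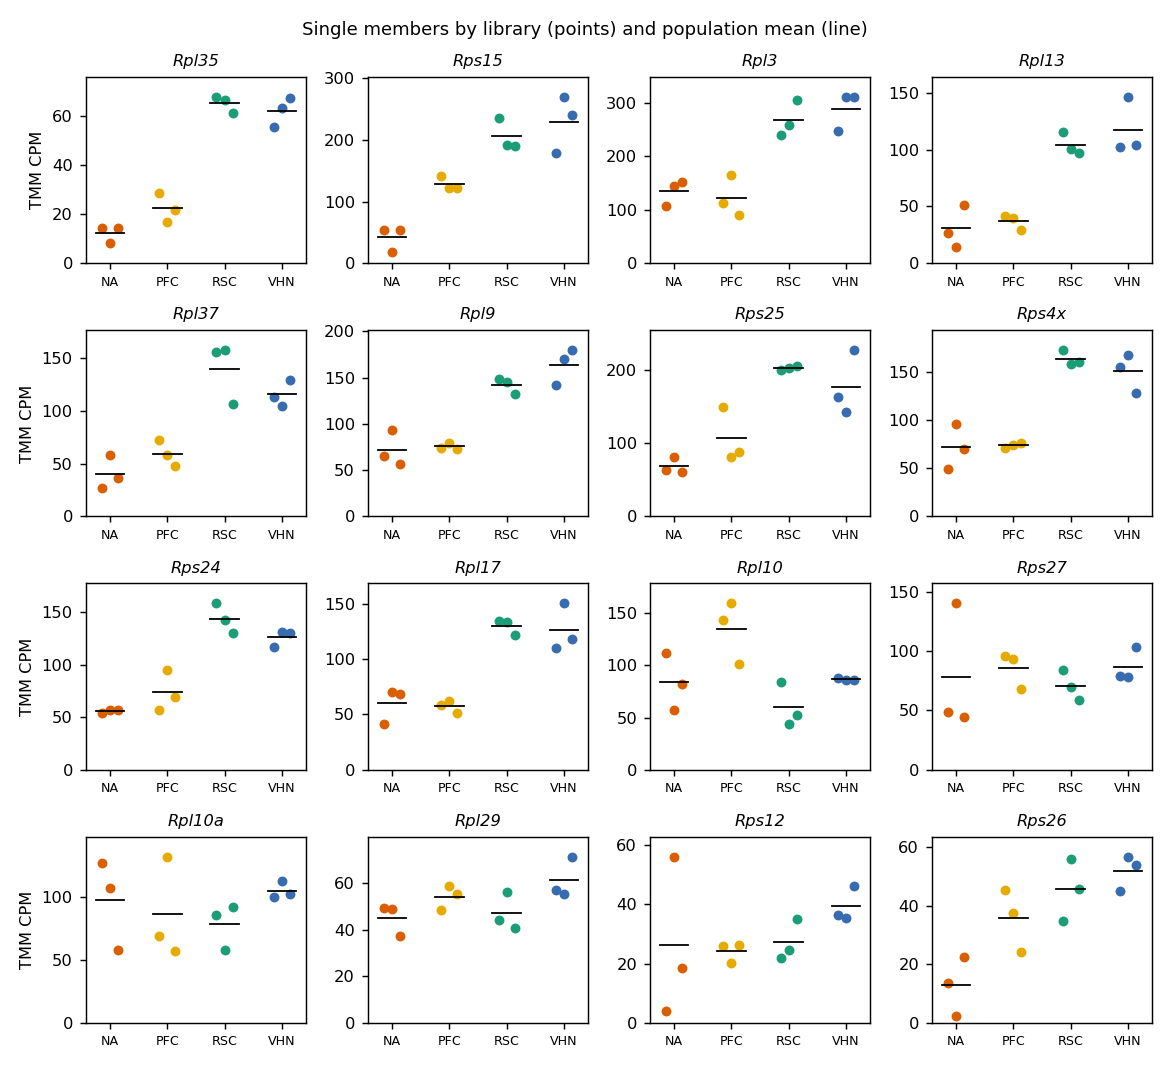
TMM-scaled CPM (vertical axes, from 0) of 16 members in each library, with a line at the population mean. The first 10 panels show the members with the lowest adjusted p between the pairs of populations; the last 6 show Rpl10, Rps27, Rpl10a, Rpl29, Rps12 and Rps26, where the sides overlap.

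Other members did not pass between the projection pairs. Rps27 ran from 44.6 to 140 CPM in NA and PFC and from 58.5 to 104 CPM in RSC and VHN (log2 fold change 0.06, SE 0.27, edgeR adjusted p = 0.911). Rpl10a averaged 91.4 ± 34.4 CPM over NA and PFC libraries and 91.4 ± 18.8 CPM over those of RSC and VHN (SD, n = 6 each). Rpl10, a late-joining protein of the large subunit, ran from 57.6 to 159 CPM in NA and PFC and from 43.3 to 87.5 CPM in RSC and VHN (0.56, SE 0.23, edgeR adjusted p = 0.111). Rpl10, Rps27 and Rpl10a, chosen here after their values were seen, are the 3 subunit genes with estimates above 0. Their intervals are wide enough that a p above the threshold does not show that levels were alike.

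The stalk proteins Rplp0, Rplp1 and Rplp2 recruit elongation factors to the large subunit. Rplp2 ran from 35.5 to 85.2 CPM in NA and PFC and from 77.2 to 116 CPM in RSC and VHN (log2 fold change −0.70, edgeR adjusted p = 0.0531). Rplp0 was at −1.02 (adjusted p = 0.127) and Rplp1 at −0.51 (adjusted p = 0.150) in the same edgeR test. Rpsa, which also binds laminin, was at −0.55 (edgeR adjusted p = 0.247). None of these 4 passed, and their libraries overlapped between the sides.

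Members differed widely in how stable they were across the 12 libraries. By CPM, Rps15a varied least, with 1.70-fold between its lowest library (PFC library 1, 100 CPM) and its highest (VHN library 2, 170 CPM). Rpl21, Rpl6, Rpl29 and Rpl4 followed, at 1.89-fold to 2.12-fold. The authors' FPKM of Rps15a differed more, from 41.2 to 185 over the same libraries. NA libraries averaged 73.3 FPKM of this gene, against 170 FPKM for VHN libraries. Its place as the steadiest member thus rests on CPM alone. Rps12 spanned 13.7-fold, and both extremes were NA libraries: 4.10, 56.1 and 18.6 CPM in NA libraries 1 to 3. Rps26 spanned 23.1-fold, with 13.6, 2.47 and 22.6 CPM in NA libraries and 45.3, 37.6 and 24.2 CPM in PFC libraries. Rps27l spanned 107-fold, Rps15 14.8-fold and Rpl13 10.1-fold.

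Across genes, levels were compared per length, as the authors' FPKM. Among the highest mean FPKM over 12 libraries were those of Rpl41 (361 ± 105, SD, n = 12), which encodes the shortest ribosomal protein, Rps15 (304 ± 161), Rps27 (228 ± 75.03) and Rps24 (221 ± 87.5). Among subunit genes the lowest were Rplp0 (15.97 ± 7.37 FPKM) and Rpsa (26.0 ± 9.31 FPKM). How reads shared with processed pseudogenes were assigned is not given in the sources used here, so these 2 levels are uncertain. The table lists 195 ribosomal protein pseudogenes with names ending in -ps, of which 107 held fragments, and in every library they took at most 0.00284% of gene fragments together.

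The copies were rarer in bulk, apart from Rpl36al, at 109 ± 49.3 FPKM, against 80.2 ± 29.7 FPKM for Rpl36a (SD, n = 12). Rpl10l had 0 fragments in 12 libraries, Rpl6l had 2 in all, Rpl39l had 10, all in VHN library 1, and Rpl3l, known from muscle, had 26. Rps27rt averaged 2.07 ± 0.877 FPKM and Rpl37rt 2.69 ± 1.60 FPKM (SD, n = 12). The longest coding transcripts of Rps27 and Rps27rt are identical over 307 bases, so their fragments cannot be separated with certainty. Rps27l, a paralog induced by p53, matches Rps27 at 76.4% of 220 aligned bases and had 12, 2 and 107 fragments in NA libraries and 265, 99 and 46 in PFC libraries, against 24, 9 and 122 in RSC and 75, 71 and 70 in VHN libraries. PFC library 1 was highest, and the sides overlapped (log2 fold change 0.62, SE 0.85, edgeR adjusted p = 0.693).

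Rpl36al was the one copy that fell. It ran from 20.1 to 73.7 CPM in NA and PFC and from 48.5 to 101 CPM in RSC and VHN (log2 fold change −0.93, SE 0.29, edgeR adjusted p = 0.0376). Its X-linked relative Rpl36a, which matches it at 84.9% of 365 aligned bases, was at −0.65 (SE 0.32, edgeR adjusted p = 0.201), and their sides overlapped. Rps4l was absent from NA library 2 and reached 19.3 CPM in RSC library 1 and 22.1 CPM in VHN library 3, with at most 8.11 CPM elsewhere (edgeR adjusted p = 0.420). Rpl39 averaged 52.6 ± 18.05 CPM over NA and PFC libraries and 63.7 ± 8.84 CPM over those of RSC and VHN (SD, n = 6 each; edgeR adjusted p = 0.345).

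Each population was also set against each other one. These comparisons share libraries, so their counts are not independent of each other. In the test of any difference among the 4 populations 25 members passed, against 8.93% of all genes, led by Rps15 (edgeR adjusted p = 0.000883), Rpl35 (adjusted p = 0.00171), Rpl3 (adjusted p = 0.00332), Rpl37a (adjusted p = 0.00345), Rpl37 (adjusted p = 0.00392), Rps25 (adjusted p = 0.0041), Rpl13, Rpl9, Rps24 and Rps29. Of 80 members, 22 were lower in NA than in RSC (2.36% of all genes) and 19 lower in NA than in VHN (1.14%). Lower in PFC than in RSC were 21 (4.88% of all genes), and lower in PFC than in VHN were 13 (2.67%). By edgeR 0 members were higher in NA than in RSC (3.47% of all genes), in NA than in VHN (1.62%) or in PFC than in VHN (2.41%).

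These counts moved when single libraries were left out, as did those of all genes. NA against RSC gave 10 calls without NA library 1, and 9, 11 and 13 without RSC libraries 1, 2 and 3, where 2.62% to 4.33% of all genes were called, against 5.83% with all libraries. NA against VHN gave 6 without NA library 1, and 11, 5 and 6 without VHN libraries 1, 2 and 3, where 0.927% to 1.75% of all genes were called, against 2.75% with all. PFC against RSC, with 22 calls in either direction, gave 13, 10 and 7 without PFC libraries 1, 2 and 3, gave 5, 6 and 8 without RSC libraries 1, 2 and 3, and gave 14 without VHN library 2. In these cases 5.04% to 7.95% of all genes were called, against 9.76% with all libraries. PFC against VHN gave 5 and 3 without PFC libraries 2 and 3, gave 8, 1 and 4 without VHN libraries 1, 2 and 3, gave 8 without RSC library 3 and gave 20 without NA library 2. Of all genes 7.46% were called without NA library 2 and 2.24% to 4.05% in the other cases, against 5.09% with all libraries.

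The members that led each comparison were partly different ones. NA against RSC was led by Rps15 (log2 fold change −2.29), Rpl35 (−2.38), Rpl37a (−1.84) and Rps25 (−1.57), with edgeR adjusted p from 0.000786 to 0.00251. NA against VHN was led by Rps15 (−2.44), Rpl37a (−1.93), Rpl35 (−2.32) and Rps29 (−1.40), with edgeR adjusted p from 0.00133 to 0.00952. PFC against RSC was led by Rpl3 (−1.12), Rpl4 (−0.80), Rpl38 (−1.43) and Rps4x (−1.14), with edgeR adjusted p from 0.00728 to 0.0103. PFC against VHN was led by Rpl3 (−1.23), Rpl9 (−1.12), Rps10 (−2.004) and Rpl19 (−1.29), with edgeR adjusted p from 0.0067 to 0.0158. Some of these calls were lost when 1 library was left out. For Rps29 it was VHN library 1 or 2 (edgeR adjusted p up to 0.0586), for Rpl38 RSC library 1 (adjusted p = 0.0761) and for Rpl9 VHN library 2 or 3 (adjusted p up to 0.0632). For Rps10 it was PFC library 1 or 3 or VHN library 1 or 2 (edgeR adjusted p up to 0.0681), and for Rpl19 PFC library 1 or 3 or VHN library 2 (adjusted p up to 0.103).

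The one member that was higher in any comparison was Rpl10, in PFC against RSC. It was at 144, 159 and 102 CPM in PFC libraries, against 84.5, 43.3 and 52.3 CPM in RSC libraries, with no overlap (log2 fold change 1.17, SE 0.32, edgeR adjusted p = 0.0294; 4.88% of all genes were higher in PFC). This call was lost without PFC library 1 (adjusted p = 0.0811), PFC library 2 (adjusted p = 0.113), RSC library 2 (adjusted p = 0.140) or RSC library 3 (adjusted p = 0.115) in the same edgeR test.

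Within the pairs, NA and PFC differed in 1 member, Rps15 (log2 fold change −1.61, SE 0.33, edgeR adjusted p = 0.0438), against 0.0359% of all genes lower and 0.402% higher in NA. With single libraries left out, this call held without NA library 2, NA library 3 or VHN library 1 and was lost without any of the other 9, with edgeR adjusted p from 0.0531 without NA library 1 to 0.0978 without PFC library 2. Rpl37a was at 23.2, 18.5 and 37.0 CPM in NA and 67.3, 69.2 and 78.3 CPM in PFC libraries, which did not overlap (−1.45, edgeR adjusted p = 0.0527). Between RSC and VHN edgeR called 0 members and 0% of all genes. The unadjusted p was under 0.05 for 1 member and for 5.18% of all genes, and DESeq2 called 0 members and 0.424% of all genes. The members' median log2 fold change was −0.05 there and −0.26 between NA and PFC.

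Several values moved with these differences, and their part in the result was not tested. One is transcript length, taken as the longest protein-coding transcript in GENCODE M21 (78 of 80 tested members had one). Among the other genes tested, the median log2 fold change between the pairs was −0.63 for 185 genes under 750 bases, −0.37 for those of 1000 to 1500 bases, −0.07 at 2000 to 3000 and 0.15 over 6000. Members had −0.69 under 750 bases (23 genes), −0.89 at 750 to 1000 (21 genes) and −0.77 at 1000 to 1500 (22 genes). Under 750 bases 43.5% of 23 members were lower in NA and PFC, against 50.8% of 61 other genes of 30 CPM or more, whose median was −0.80. Without respiratory chain genes, 28.1% of 32 such genes were lower, with a median of −0.49. At 750 to 1000 bases 52.4% of 21 members were lower, against 33.7% of 83 other genes of 30 CPM or more. At 1000 to 1500 bases 59.1% of 22 members were lower, against 23.4% of 252 such genes.

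**Figure D4:**
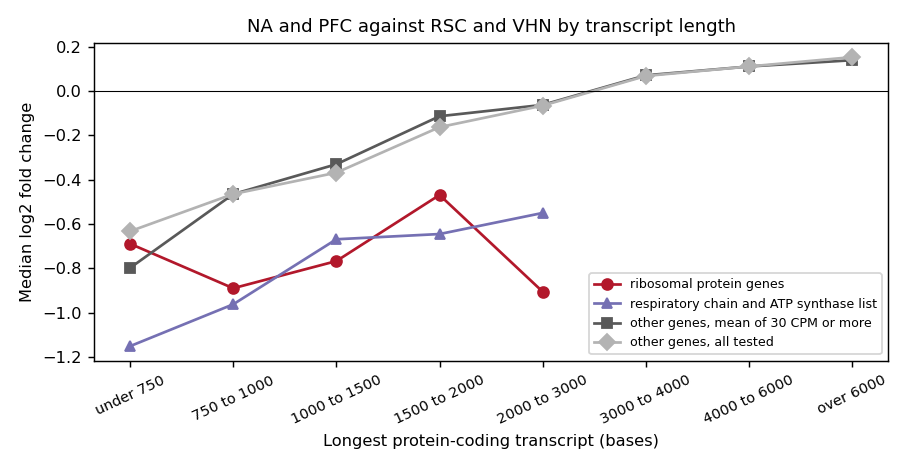
Median log2 fold change (vertical axis), NA and PFC against RSC and VHN, by length of the longest protein-coding transcript in bases, for members, the respiratory list and other genes; bins of under 4 genes are not drawn. Other genes go from −0.63 under 750 bases to 0.15 over 6000 bases, while members are between −0.91 (4 genes) and −0.47 (6 genes). Genes are placed by annotated length, which need not be that of the expressed message.

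Among the members themselves the fold change did not follow this annotated length. Spearman's rho over 78 members was 0.05 with length, −0.20 with GC content and −0.04 with mean CPM, as a description across genes of the same libraries. The longest annotated transcript need not be the one expressed, at 5179 bases for Rps15a, 3706 for Rps20 and 2989 for Rpl18. This rho therefore cannot tell whether the fold change followed the length of the expressed message. The fold change did not separate members by their starts either. The 28 tested members with a pyrimidine run near the start had a median of −0.68, and the 31 without one had −0.76.

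Another group that moved alongside is the respiratory chain and ATP synthase, whose nuclear genes are likewise short and abundant. Of 72 tested, 44 were lower in NA and PFC and 0 higher, with a median of −0.84. Over all genes tested 6.66% were lower and 7.58% higher. The respiratory genes took 0.850% ± 0.0390 of gene fragments in NA and PFC and 1.41% ± 0.0681 in RSC and VHN (SD, n = 6 each). Mitochondrial ribosomal proteins, which build the separate ribosome of that organelle, had 9 of 77 lower and 1 higher with a median of −0.49. They took 0.192% ± 0.0115 of fragments in NA and PFC and 0.266% ± 0.0153 in RSC and VHN (SD, n = 6 each).

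Of 17 other translation genes whose messages carry TOP motifs, 5 fell and 0 rose, with a median of −0.56. The elongation factor subunits Eef1b2 (log2 fold change −1.15), Eef1g (−0.93) and Eef2 (−0.56), the initiation factor subunit Eif3e (−0.63) and the histone chaperone Nap1l1 (−0.84) fell (edgeR adjusted p from 0.000994 to 0.0382). Eef1a1 was at −0.18 and Pabpc1 at 0.30, and neither passed (edgeR adjusted p = 0.332 and 0.324). Of 5 close relatives of the members with other symbols, Rps3a1 fell (−1.22, edgeR adjusted p = 0.000184).

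Genes that build or regulate ribosomes were counted in the same test, in which 6.66% of all genes were lower and 7.58% higher. Of 20 ribosome biogenesis genes 3 fell and 1 rose, with a median of −0.34. Nop58, of the small nucleolar RNA complexes, was at −1.14 (edgeR adjusted p = 0.00305), Nhp2 at −1.15 (adjusted p = 0.0366) and nucleolin, Ncl, at −0.45 (adjusted p = 0.0307). Rrn3, an initiation factor of RNA polymerase I, was at 0.83 (edgeR adjusted p = 0.0248). Of 20 genes of mTOR signalling 2 rose and 1 fell, with a median of 0.05. These counts are near the shares of all genes, so the values below describe single genes and not the list. The mTOR inhibitor Deptor was at 2.05 (edgeR adjusted p = 0.00303) and the translation repressor Eif4ebp2 at 1.68 (adjusted p = 0.0497), while the kinase Rps6ka1, averaging 0.159 CPM over NA and PFC libraries, against 4.20 CPM over those of RSC and VHN, was at −4.96 (adjusted p = 0.0403). Larp1 was at −0.03 and Mtor at 0.07, and neither passed.

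Markers listed for other cell types also differed between libraries. Of 8 interneuron markers 6 were tested, and 4 of them, Gad1, Gad2, Pvalb and Npy, were lower in NA and PFC. Cck (log2 fold change 0.67) and Sst (0.71) had estimates in the other direction and did not pass (edgeR adjusted p = 0.0823 and 0.708). In PFC libraries Cck was at 625 to 1008 CPM, while Gad1 was at 0 and Gad2 at 0.520 CPM or less. A list sum led by Cck thus cannot be read as interneuron content. The list summed to between 238 and 1010 CPM in NA and PFC libraries and 385 to 634 CPM in RSC and VHN libraries, mostly from Cck, and 1 of its 8 markers was at 0 in every library. Gad1, Gad2, Pvalb and Npy together were at 0.156 to 10.1 CPM in NA and PFC, at 58.6 and 226 CPM in RSC libraries 2 and 3, at 114 CPM in VHN library 3 and at 1.16 to 5.25 CPM in the remaining 3. Without those 3 libraries 17 members were lower in NA and PFC, against 1.96% of all genes in this smaller design, and the members' median was −0.79, while the median of all genes was 0.18. The member share was 0.809% in RSC library 1 and 0.758% and 0.887% in VHN libraries 1 and 2, all above every NA and PFC library.

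Astrocyte markers summed to 281 to 590.2 CPM in NA and PFC and 61.9 to 388 CPM in RSC and VHN, mostly from Slc1a2. Of 3 tested, 1, Slc1a2, was higher in NA and PFC, averaging 381 CPM, against 189 CPM in RSC and VHN. Slc1a3 averaged 2.08 and 0.131 CPM and Aqp4 1.52 and 0.660 CPM, and neither passed. Oligodendrocyte markers summed to 38.7 to 73.7 CPM in NA and PFC and 40.4 to 152 CPM in RSC and VHN, with 1 of 3 tested lower. The 4 markers of vessel cells summed to 24.0 to 91.8 CPM in NA and PFC and 2.02 to 21.5 CPM in RSC and VHN. These ranges did not overlap. Nearly all of the sum was Rgs5 of pericytes, the 1 tested, and 1 of the 4 markers was at 0 in every library. Rgs5 averaged 56.9 CPM over NA and PFC libraries and 7.86 CPM over those of RSC and VHN (log2 fold change 2.76, edgeR adjusted p = 0.00339). The 4 microglia markers were together at 1.23 CPM or less in every library and the 2 of oligodendrocyte precursors at 1.79 CPM or less. The part of these cell types in the result was not tested. Of 8 pyramidal markers, all present, 4 were higher in NA and PFC and Slc17a6 was lower.

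The labels list 8 single-cell samples, but the wells carry only a plate and a position that match none of them, and no label gives a projection. All wells were thus read as 1 sample, and no test was made. Of 384 wells 348 had 1000 or more detected genes, and their median member share was 2.07% of counts (1.28% to 14.8%). The unit is a share of whole-number counts and cannot be set against the bulk share of fragments.

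Before any further result, 16 of the 348 wells stood apart. On each plate 1 column (5 on Q5, 6 on Q6, 7 on Q7 and 8 on Q8) had 4 of its 8 wells under 1000 detected genes, always rows C, D, G and H, while no other column had more than 2 such wells. The 4 wells kept in each of these columns, rows A, B, E and F, held a member share of 12.1% to 14.8%, whereas the other 332 wells ran from 1.28% to 4.17%. These 16 wells go against the label of a pyramidal cell. Slc17a7, Slc17a6, Camk2a, Neurod6 and Rbfox3 had no count in any of them, and 0 of 16 wells allows a share of up to 18.75%. In contrast, 326 of the other 332 wells held counts of Slc17a7. Nrgn had counts in 4 of the 16 wells, Snap25 in 3 and Nts in 1. Their means there were 11.2, 9.23 and 1.59 CPM, against 900, 1310 and 429 CPM in the other wells. The 16 wells averaged 12930 CPM of the immunoglobulin light chain gene Igkc, 2742 CPM of Vim and 593 CPM of the proliferation marker Mki67. The other wells averaged 3.06, 4.32 and 0.0211 CPM of these genes. The median total of the 16 wells was 30545.5 counts, against 113502 in the other wells. What these wells held was not tested.

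**Figure D5:**
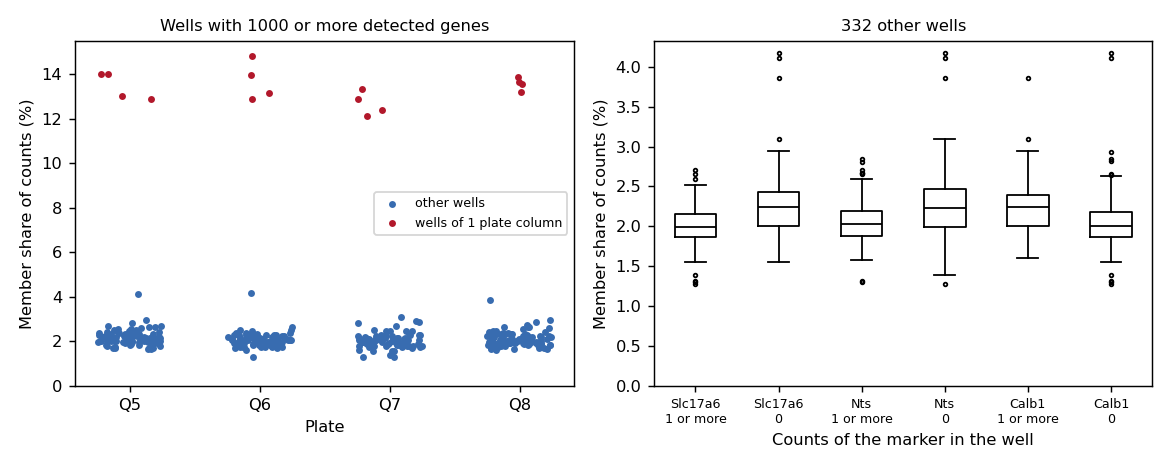
Left, member share of counts (%) in each of 348 wells by plate, with the 16 wells of the 4 set-apart plate columns at 12.1% to 14.8% and the others at 1.28% to 4.17%. Right, the same share in the 332 other wells by whether the well held counts of Slc17a6, Nts or Calb1 (box, quartiles; line, median; whiskers, 1.5 times the interquartile range).

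Without the 16 wells the median share was 2.05%, with quartiles of 1.90% and 2.25%. Plate medians were close, from 2.01% on Q8 to 2.13% on Q5. Small subunit genes took a median of 0.778% and large subunit genes 1.25% of counts. The 2 subunits rose and fell together over wells, with Spearman's rho of 0.61 over 332 wells (0.66 over all 348), as a description of wells that share plates and depth. The share had a rho of −0.08 with the total count of a well over the 332 wells.

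By gene, the order in single cells was another one than in bulk. Rpl3 led with a mean of 966 CPM over the 332 wells (1061 over all 348), followed by Rpl21 (759), Rpl14 (742), Rps14 (700) and Rpl8 (643). Rpl8 averaged 882 CPM over all 348 wells, since the 16 set-apart wells held 5850. Rplp0, among the lowest in bulk FPKM, was at 295 CPM and rank 29 of 82. Over 72 subunit genes in both tables, mean bulk FPKM and mean single-cell CPM had a Spearman's rho of 0.04, with different library types and only the first scaled by length.

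The spread of each gene over wells was taken beyond counting noise, as a coefficient of variation among 73 members of at least 30 CPM. Rpl21 (35.3%), Rps14 (39.8%), Rpl35 (40.0%), Rpl3 (40.1%) and Rps7 (40.5%) varied least. Rps27l (156%), Rps4l (132%), Rpl22 (108%), Rps29 (104%) and Rps27 (94.7%) varied most. This spread covers wells of all 4 plates, so it does not separate plates from cells. Rps27 averaged 133 CPM on Q5 and 52.6 on Q7, Rps29 80.5 and 26.3, and Rps14 841 and 501. Rpl22 averaged 68.7 and 67.9 CPM on these plates. Rps4l averaged 120 CPM with a median of 47.9 and had counts in 204 of 332 wells, against a mean of 1.33 CPM in the 16 set-apart wells. Rpl35, the member with the largest change in bulk, was thus among the steadiest in single wells. Rpl10l and Rpl39l had counts in 0 of 332 wells, which allows a share of up to 0.904% of wells with a count.

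The wells were also read against 4 genes that separate the bulk pairs. In bulk Nts ran from 10.9 to 31.6 CPM in NA and PFC, against 199 to 406 CPM in RSC and VHN, and Slc17a6 from 37.9 to 174 CPM in NA and PFC, against 290 to 537 CPM in RSC and VHN. Kit and Calb1 were higher in NA and PFC. Over the 332 wells the member share had a Spearman's rho of −0.30 with Nts, −0.36 with Slc17a6, 0.34 with Calb1 and 0.30 with Kit. The median share was 1.99% in 201 wells with Slc17a6 counts and 2.24% in 131 wells without, and 2.24% in 108 wells with Calb1 counts and 2.002% in 224 wells without.

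Each of the 4 signs was the same on all 4 plates, with rho from −0.53 to −0.23 for Slc17a6 and from 0.22 to 0.53 for Calb1. Over all 348 wells, rho was −0.37 with Nts, −0.41 with Slc17a6, 0.27 with Calb1 and 0.23 with Kit. Wells with Slc17a6 counts were somewhat deeper, at a median of 117721 counts, against 104799 in wells without. In single wells the share was thus lower where the genes of the RSC and VHN side were present, while in bulk libraries it was higher on that side. These are different assays, the wells have no projection label, and the difference between them was not tested.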

How the data were processed

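Bulk measurements were read from a Cuffdiff table with a line per gene and library, per the file headers, with mm9 as the genome build per the submitters' processing notes; aligner and annotation are not given in the sources used here. In it the authors' fragments per gene are expected counts, of which 8.51% of those above 0 held a fraction; they were rounded for the tests. The authors also deposited FPKM values per library, and 2 further scaled columns were not used. The single-cell table holds the deposited whole-number counts per gene and well. Symbols were matched by identifier to 87.5% of 37607 bulk genes. Whether molecular identifiers were used and whether strand was counted is not given, so limits from a count of 0 cover counting error only.

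Gene fragments per library ran from 10777271 to 20904122. Genes were filtered with filterByExpr (smallest count 10), scaled by TMM and fitted over all 12 libraries in edgeR 4.0.16 (R 4.3.3), with adjusted p under 0.05 taken as a call; 13916 genes were tested. The script was tested on simulated data. Replicates are biological per the series' design; the table numbers them from 0 and the labels from 1, and the 2 orders were taken as equal, for naming only. Alternatives were DESeq2 1.42.0, other scalings, no filter, a replicate block and leaving libraries out. CPM in wells use the total count of the well. Named genes follow a rule: the lowest adjusted p per comparison, the highest and lowest FPKM, the most and least variable, the copies and the stalk proteins; the single-cell spread was read among members of at least 30 CPM, a limit added later. Members, lists and tests were chosen with earlier results of these data known. Of the single-cell lines, 4 with symbols damaged into dates were left out. Motifs and windows used the first RefSeq start listed per gene. One member and 1 marker gene are counted but not reported here by name.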

Additional observations from a re-analysis of the deposited data

Results flagged for a closer look

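Among the 10 members with the lowest adjusted p and the summed share, 22 sets of 6 libraries were checked for a library far from the other 5, and 3 had one; chance alone gives about 1 in 20 sets. Rps25 in PFC library 1 was at 149.8 CPM, while the other NA and PFC libraries ran from 60.5 to 88.8 CPM. Rps24 in PFC library 2 was at 95.3 CPM, while the others ran from 54.3 to 69.1 CPM. Rpl13 in VHN library 2 was at 146.1 CPM, while the other RSC and VHN libraries ran from 97.2 to 115 CPM.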

How the results depend on the processing

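The lower level of the members in NA and PFC kept its direction under every alternative run. The members' median log2 fold change ran from −0.84 to −0.69 as single libraries were left out. Counts of members called, with the share of all genes called in brackets, also moved as single libraries were left out. They ran from 29 to 51 between the pairs of populations (10.1% to 14.7%) and 19 to 34 in the 4-group test (6.04% to 9.95%). NA against PFC gave 0 to 2 (0.15% to 1.03%) and NA against RSC 9 to 25 (2.62% to 5.97%). NA against VHN gave 5 to 24 (0.927% to 2.96%) and PFC against RSC 5 to 28 (5.04% to 12.4%). PFC against VHN gave 1 to 20 (2.24% to 7.46%) and RSC against VHN 0 to 0 (0% to 0.129%). Without RSC libraries 2 and 3 and VHN library 3, in a smaller design, the counts were 17 between the pairs, 3 in the 4-group test, 1 for NA against RSC, 2 for NA against VHN, 1 for PFC against RSC, 0 for PFC against VHN and 0 for NA against PFC. That smaller design keeps RSC library 1 as the only RSC library, and calls over all genes fell in it too. The lower counts there are therefore no result about the members. Without NA library 2 and PFC library 3 NA against RSC gave 27 (5.98% of all genes) and NA against VHN 25 (3.13%). DESeq2 called 41 in the 4-group test (17.3% of all genes), 3 for NA against PFC (3.33%) and 34 for NA against RSC (12%). It called 36 for NA against VHN (7.61%) and 22 for PFC against VHN (9.99%). Without scaling factors NA against VHN gave 30 (2.87% of all genes) and NA against PFC 0 (0.165%). With no filter NA against PFC gave 2 (2.44%). The cause of these changes was not tested.

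Libraries with the same replicate number did not deviate together (correlations from −0.04 to 0.03 over 18 pairs). No pairing by number was thus seen, but with 3 libraries per population a weak one could be missed. With the replicate number as a block 38 members were lower between the pairs (6.14% of all genes) and 23 passed the 4-group test (7.89%). NA against PFC, NA against RSC and NA against VHN gave 1, 21 and 18 (0.374%, 5.21% and 2.62%). PFC against RSC, PFC against VHN and RSC against VHN gave 18, 11 and 0 (8.95%, 4.77% and 0%).

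The share of fragments moved with its definition but not in its order. As a share of summed FPKM, NA had 1.49%, PFC 1.99%, RSC 2.85% and VHN 3.13%. Without the 10 genes with the most fragments it was 0.432% in NA and 0.816% in RSC, and with the close relatives counted it was 0.809% in RSC and 2.20% in wells. As single libraries were left out NA ran from 0.394% to 0.419%, PFC from 0.501% to 0.540%, RSC from 0.751% to 0.784% and VHN from 0.813% to 0.877%, and as single plates were left out from 2.05% to 2.09% in wells. Leaving out the 16 wells, an alternative added after the data were seen, gave 2.05%.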
